A study of Sus scrofa with 9 samples.

Results

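Integrins are the cell surface receptors that tie a cell to the matrix around it. Each receptor is made of an alpha and a beta subunit, and the alpha subunit does most to set which matrix protein is bound. The cytoplasmic tail of the beta subunit is joined to the actin cytoskeleton through adaptor proteins such as talin, kindlin and vinculin. In the wall of a vein, smooth muscle cells and fibroblasts use these receptors to hold collagen, fibronectin and laminin, to sense stretch, and to release active transforming growth factor beta from its latent form. The roles given for single genes are known from human and mouse work and are background, not results.

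The genes described here are 9 integrin subunits of the vein wall, taken as the rows of the deposited expression table whose gene name is ITGA1, ITGA5, ITGA7, ITGA8, ITGA11, ITGAV, ITGB1, ITGB3 or ITGB5. Each name matched 1 row, so the 9 members stand among 30477 genes. Expression was measured by RNA sequencing of outflow veins of arteriovenous fistulas, in which a surgeon connects an artery to a vein so that dialysis can reach the blood. The animals were pigs (Sus scrofa) in which a chronic kidney disease model had been set up 28 days before a carotid artery to jugular vein fistula was made, and the outflow veins were taken 28 days after that surgery. In the 6 MSC libraries, adipose-derived mesenchymal stem cells (MSCs) in Ringer's lactate had been laid on the adventitia, the outer coat of the vein, right after the fistula was made. The 3 control libraries came from untreated vessels, which had the same kidney disease model and the same fistula. The labels describe no vehicle-only group, so the comparison is of cells in their carrier against no application. They do not say whether the cells came from the same animal or a donor for each library, nor that each library is a separate animal, so p-values reflect how far these libraries spread, and part of that spread may be technical.

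Values are RPKM, which count reads relative to a gene's length and to the library's total, divided by a scaling factor for each library. The shallowest library, MSC 2, had 16939157 reads and the deepest, MSC 5, had 47417606. Small RNA made up 53.3% of MSC 6 and 40.4% of control 2, and in MSC 2 reads fell on 94.5% of genes. MSC 5 was the least like the other libraries, with a median correlation of 0.708, taken across genes that are no independent replicates. Flow-cell lane 7 held MSC 2, MSC 5 and MSC 6 and no control library, so for these 3 libraries lane and treatment cannot be told apart. Unexplained tags stand in the names of MSC 1 (Allo, M) and control 2 (NT, F). Markers of smooth muscle, fibroblasts and endothelium were present in all 9 libraries, as fits a labelled vein wall.

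All 9 integrins were well above the limit of detection. The smallest number of reads behind any member in any library was 374, for ITGA7 in MSC 3, and the largest was 57516, for ITGB1. Counting error was therefore at most 5.17% of a value, which is small beside the spread between libraries described below.

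None of the 9 integrins passed the test between MSC-treated and control veins. In limma's test on log2(scaled RPKM + 1), with Benjamini-Hochberg adjustment over the 17884 genes kept, 0 members passed the adjusted p threshold of 0.05 as higher and 0 as lower. The background in this comparison was also 0% in each direction, so the count says nothing particular about integrins. The smallest adjusted p of any gene was 0.319. Without adjustment, 1 member, ITGAV, had a p under 0.05 as lower in MSC veins, beside 2.18% of all genes, and 0 members did so as higher, beside 1.9% of all genes. Of the 9 fold changes 5 were positive and 4 negative, with a median log2 fold change of 0.07, against a median of 0.04 over all genes tested. Leaving out control 1 called 0.00559% of genes higher and 0.117% lower, and lanes 5 and 6 alone called 0.0112% each way, in both cases with 0 of the 9 members. No member had all MSC libraries above, or all below, the controls, where 1.97% of genes did so in each direction. In a bulk sample such as a vein wall, fewer cells of a type and less RNA per cell cannot be told apart.

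**Figure D1:**
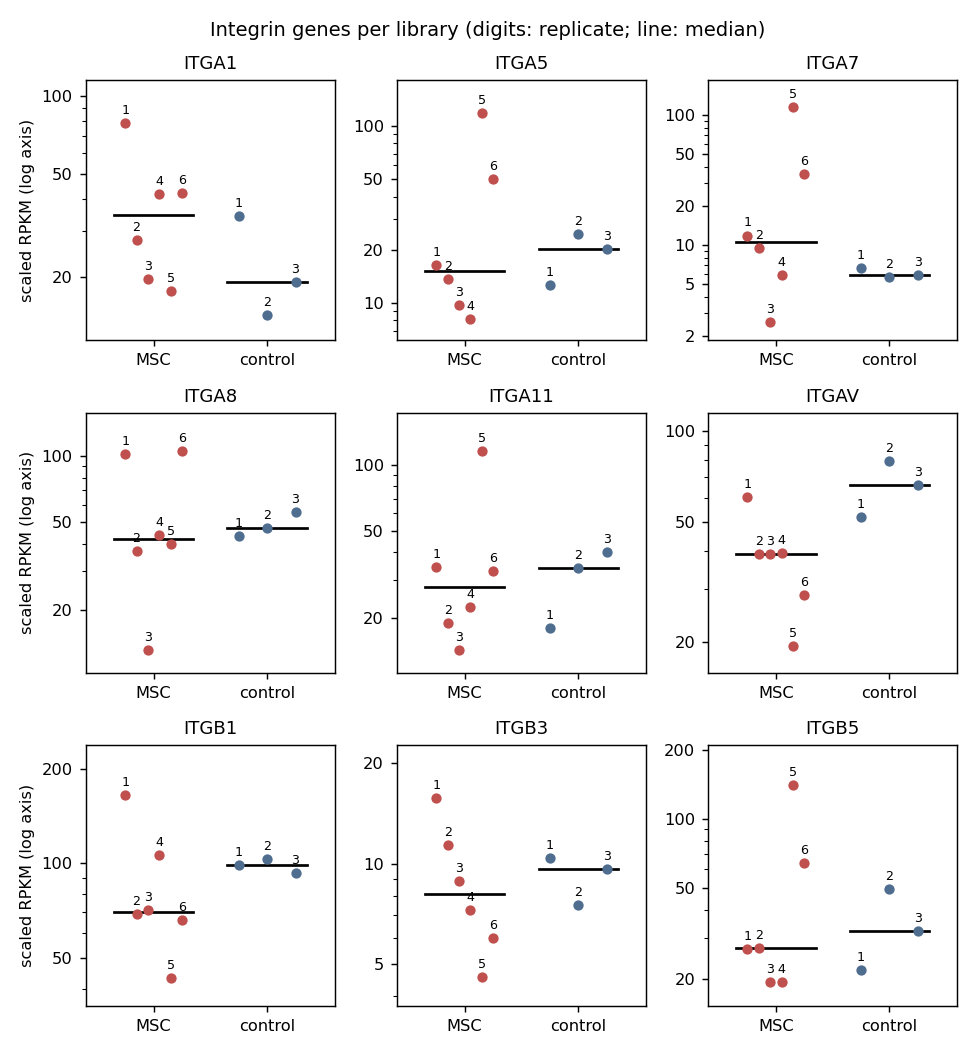
Level of the 9 integrin genes in each library, as scaled RPKM on log axes, with MSC libraries (red, replicates 1 to 6) and control libraries (blue, replicates 1 to 3); the line is the group median. The 2 groups overlap in every panel, and MSC 5 and MSC 6 stand above the other libraries for ITGA5, ITGA7 and ITGB5.

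Of the alpha subunits, ITGAV, ITGA5 and ITGA8 bind proteins with the Arg-Gly-Asp motif. ITGAV encodes the alpha subunit that joins several beta subunits to bind vitronectin, fibronectin and the latent form of transforming growth factor beta. Its 7116-base gene model lies on chromosome 15, from 91604676 to 91711840 in the table's own coordinates. ITGAV was at 60.4, 39.1, 38.9, 39.5, 19.4 and 28.4 scaled RPKM in MSC 1 to MSC 6, against 51.7, 79.3 and 66.2 in control 1 to control 3. In 5 of the 6 MSC libraries it was below every control, and MSC 1 lay between control 1 and control 3. The mean was 37.6 ± 13.7 scaled RPKM in MSC veins (SD, n = 6) and 65.7 ± 13.8 in control veins (SD, n = 3). This was a log2 fold change of -0.85 (SE 0.37, 95% interval -1.67 to -0.03), with an unadjusted two-sided p of 0.0440 and an adjusted p of 0.920 in limma. ITGAV was the only one of the 9 whose interval lay on 1 side of 0, and it did not pass the threshold across genes.

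The direction of the ITGAV difference held in every alternative fit that was run. Over 25 other settings its log2 fold change ran from -1.02 to -0.41 and the smallest adjusted p was 0.0922. Within lanes 5 and 6, which held 3 MSC and 3 control libraries, the mean was 46.2 ± 12.2 scaled RPKM in MSC veins (SD, n = 3), against the same 65.7 in control veins, and the log2 fold change was -0.51 with an adjusted p of 0.482 in limma. ITGAV also varied less between MSC libraries than most members did. Its SD of log2 values over the MSC libraries was 0.53, at the 53.2 percentile of all genes tested.

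ITGA5 encodes the alpha subunit of the classical fibronectin receptor. The gene model lies on chromosome 5, from 19586746 to 19610362, and shares no bases with another listed gene. ITGA5 was at 16.5, 13.8, 9.77, 8.13, 118 and 50.5 scaled RPKM in MSC 1 to MSC 6, against 12.7, 24.7 and 20.2 in control 1 to control 3. MSC 5 and MSC 6 were above every control, MSC 3 and MSC 4 were below every control, and the other 2 lay among them. The mean of 36.2 ± 43.2 in MSC veins (SD, n = 6) set against 19.2 ± 6.08 in control veins (SD, n = 3) rested on MSC 5, since the MSC mean was 19.7 without it. On the log2 scale the difference was 0.25 (SE 0.76), with an adjusted p of 0.940 in limma, and it was -0.22 without MSC 5. Within lanes 5 and 6 it was -0.70, with an adjusted p of 0.446.

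ITGA8 encodes the alpha subunit that binds nephronectin and fibronectin on smooth muscle and related cells. Its gene model on chromosome 10, from 46132914 to 46303365, shares no bases with another listed gene. ITGA8 was at 102, 36.9, 13.1, 43.8, 40.0 and 106 scaled RPKM in MSC 1 to MSC 6, against 43.5, 47.3 and 55.6 in control 1 to control 3. MSC 1 and MSC 6 were above every control, MSC 2, MSC 3 and MSC 5 were below every control, and MSC 4 fell among them. Between the groups the log2 fold change was -0.08 (SE 0.59, 95% interval -1.38 to 1.23), with an adjusted p of 0.976 in limma. The mean was 57.0 ± 38.0 in MSC veins (SD, n = 6) and 48.8 ± 6.20 in control veins (SD, n = 3), so the controls lay closer together.

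The collagen receptors ITGA1 and ITGA11 did not follow each other. ITGA1 encodes the alpha subunit of a receptor for basement membrane collagen that is abundant in smooth muscle. It lies on chromosome 16, from 32130235 to 32304592, and its gene model contains PELO. PELO reads came to 19.9% of those of ITGA1 on average and to 39.6% in the library where that share was highest. ITGA1 was at 78.3, 27.8, 19.7, 41.8, 17.7 and 42.1 scaled RPKM in MSC 1 to MSC 6, against 34.3, 14.3 and 19.1 in control 1 to control 3. MSC 1, MSC 4 and MSC 6 were above every control and no MSC library was below every control. The mean was 37.9 ± 22.4 in MSC veins (SD, n = 6) and 22.6 ± 10.4 in control veins (SD, n = 3), a log2 fold change of 0.63 (SE 0.48, 95% interval -0.44 to 1.71) with an adjusted p of 0.920 in limma. It was positive in all 25 other settings, from 0.12 to 1.32. It passed the threshold in 1 of them, limma-voom with sample quality weights (adjusted p = 0.0143), a fit that called 5.87% of all genes higher and 6.24% lower and gave MSC 5 a weight of 0.0724 and control 3 a weight of 8.26.

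ITGA11 encodes the alpha subunit of a fibroblast receptor for fibrillar collagen. Its gene model on chromosome 1, from 166173135 to 166310972, overlaps FEM1B, whose reads came to 26.6% of its own on average and to 68.6% in 1 library, so the level of ITGA11 is less certain than that of ITGA8. ITGA11 was at 34.1, 19.1, 14.4, 22.6, 115 and 32.7 scaled RPKM in MSC 1 to MSC 6, against 18.0, 34.0 and 40.1 in control 1 to control 3. MSC 5 alone was above every control and MSC 3 alone was below every control. Its mean in MSC veins, 39.7 ± 37.7 (SD, n = 6), was 24.6 without MSC 5, against 30.7 ± 11.4 in control veins (SD, n = 3). The log2 fold change was 0.07 (SE 0.58), with an adjusted p of 0.978 in limma, and it was negative in 9 of the 25 other settings, among them the values as deposited (-0.11) and scaling factors from all genes (-0.07).

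The laminin receptor subunit ITGA7, known from muscle, had the widest range of the 9. Its gene model on chromosome 5, from 21126565 to 21148776, overlaps BLOC1S1, whose reads came to 13.4% of its own on average. That share was highest in MSC 3, at 75.4%, the library where ITGA7 itself was lowest. ITGA7 was at 11.9, 9.44, 2.58, 5.87, 115 and 35.5 scaled RPKM in MSC 1 to MSC 6, against 6.62, 5.67 and 5.94 in control 1 to control 3. It was above every control in MSC 1, MSC 2, MSC 5 and MSC 6 and below every control in MSC 3, while the 3 controls differed little. The mean was 30.0 ± 43.2 in MSC veins (SD, n = 6), or 13.1 without MSC 5, and 6.08 ± 0.490 in control veins (SD, n = 3). Its log2 fold change of 1.14 (SE 0.91, 95% interval -0.88 to 3.15) had an adjusted p of 0.920 in limma. Within lanes 5 and 6 the mean was 6.78 ± 4.71 in MSC veins (SD, n = 3) and the log2 fold change was -0.05. The SD of its log2 values over the MSC libraries, 1.8, stood at the 98.4 percentile of all genes tested.

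The beta subunits differed from each other in the same libraries. ITGB1, the common partner of most of the alpha subunits listed here, lies on chromosome 10, from 56078398 to 56173795, and was the most abundant member per length in both groups. ITGB1 was at 164, 69.2, 71.2, 106, 43.3 and 66.3 scaled RPKM in MSC 1 to MSC 6, against 99.1, 103 and 93.3 in control 1 to control 3. MSC 1 and MSC 4 were above every control and the other 4 MSC libraries were below every control. The mean was 86.7 ± 43.0 in MSC veins (SD, n = 6) and 98.4 ± 4.83 in control veins (SD, n = 3), with a log2 fold change of -0.31 (SE 0.42) and an adjusted p of 0.920 in limma. Within lanes 5 and 6 the log2 fold change was 0.13.

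ITGB3, a partner of ITGAV in the vessel wall and of ITGA2B on platelets, lies on chromosome 12, from 16693505 to 16752292. ITGB3 was at 15.8, 11.3, 8.90, 7.27, 4.58 and 5.96 scaled RPKM in MSC 1 to MSC 6, against 10.4, 7.49 and 9.61 in control 1 to control 3. MSC 1 and MSC 2 were above every control, and MSC 4, MSC 5 and MSC 6 were below every control. The means nearly met, at 8.97 ± 4.07 in MSC veins (SD, n = 6) and 9.16 ± 1.49 in control veins (SD, n = 3). The log2 fold change was -0.11 (95% interval -0.90 to 0.68), with an adjusted p of 0.942 in limma, and without MSC 5 it was 0.04. Platelet markers were close to 0 in all libraries, with a summed level of 0.516 to 2.66 scaled RPKM in MSC veins and 0.763 to 1.13 in control veins over the 6 markers found, and 4 of these were below the filter. ITGA2B, not among these markers, was at 3.65 to 7.86 in MSC veins and 5.82 to 7.03 in control veins. Its row spans the RefSeq gene GPATCH8, so its level may hold reads of both genes.

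ITGB5, the other vitronectin-binding partner of ITGAV, lies on chromosome 13, from 135467798 to 135587483. ITGB5 was at 27.0, 27.2, 19.3, 19.3, 140 and 64.3 scaled RPKM in MSC 1 to MSC 6, against 21.9, 49.1 and 32.4 in control 1 to control 3. As for ITGA5, MSC 5 and MSC 6 were above every control and MSC 3 and MSC 4 below every control. The mean was 49.6 ± 47.5 in MSC veins (SD, n = 6), or 31.4 without MSC 5, and 34.5 ± 13.7 in control veins (SD, n = 3). For ITGB5 the log2 fold change was 0.17 (SE 0.62), with an adjusted p of 0.948 in limma. It was -0.21 without MSC 5 and -0.01 on the values as deposited.

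**Figure D2:**
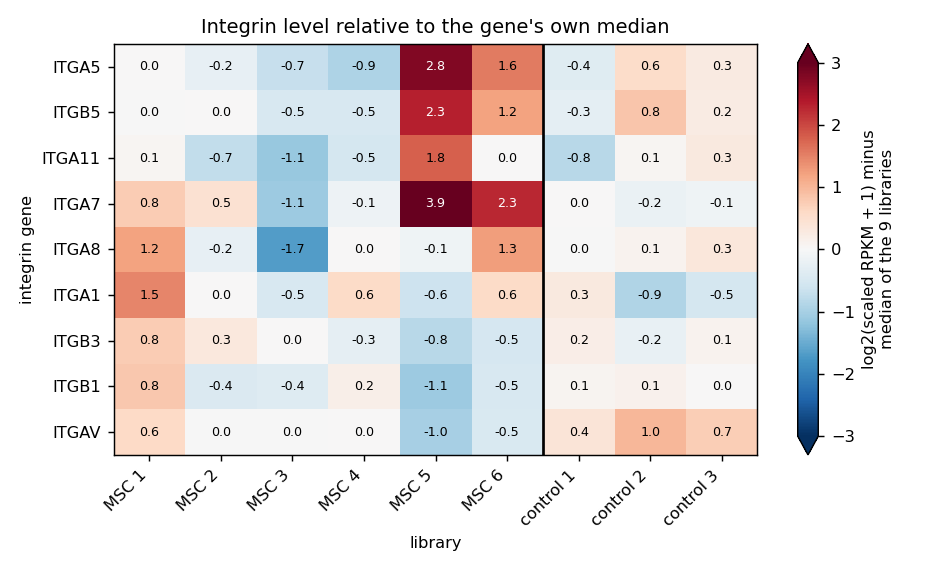
Each integrin gene's log2(scaled RPKM + 1) in each library minus its own median over the 9 libraries, with MSC libraries left of the line and control libraries right of it. MSC 5 reaches 3.93 above the median for ITGA7 and 1.09 below it for ITGB1, while no control value is more than 0.99 from the median.

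Several members were high or low together in the same libraries. MSC 5 had the highest level of the 9 libraries for ITGA5, ITGA7, ITGA11 and ITGB5 and the lowest for ITGAV, ITGB1 and ITGB3. For comparison, MSC 5 was highest for 31.7% of all genes tested and lowest for 31.8%. MSC 1 was highest for ITGA1, ITGB1 and ITGB3, although it was highest for only 2.62% of all genes. MSC 3 was lowest for ITGA7, ITGA8 and ITGA11, beside 17.3% of all genes, and it was above the median for 0 of the 9 members.

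Summed over the 9 genes, integrin RNA was 510, 254, 198, 294, 614 and 432 scaled RPKM in MSC 1 to MSC 6, against 298, 365 and 342 in control 1 to control 3. The 3 controls all lay inside the MSC range. Across genes, the median SD of log2 values was 0.500 over the MSC libraries and 0.156 over the control libraries, so the wider MSC spread was not particular to integrins. Among members that spread stood at the 96.3 percentile of all genes for ITGA5, at 90.6 for ITGB5, 89.6 for ITGA8, 87.5 for ITGA11, 74.1 for ITGA1, 64.2 for ITGB1 and 57.4 for ITGB3.

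Ranked per length, the order of the members differed between the groups below ITGB1. In MSC veins the means ran from ITGB1 through ITGA8, ITGB5, ITGA11, ITGA1, ITGAV, ITGA5 and ITGA7 down to ITGB3. In control veins they ran from ITGB1 through ITGAV, ITGA8, ITGB5, ITGA11, ITGA1, ITGA5 and ITGB3 down to ITGA7. ITGB1 was above ITGA8 in 5 of 6 MSC libraries, and in control veins it was above ITGAV in 3 of 3. The neighbours ITGA11, ITGA1, ITGAV and ITGA5 in the MSC order had means of 39.7, 37.9, 37.6 and 36.2, and this order did not hold library by library. ITGA11 was above ITGA1 in only 1 of 6 libraries, MSC 5, and ITGA1 above ITGAV in 3 of 6. Further down, ITGA7 was above ITGB3 in only 2 of 6. The MSC order rested on MSC 5: without it the MSC means were 95.4 for ITGB1, 60.4 for ITGA8, 42.0 for ITGA1, 41.3 for ITGAV, 31.4 for ITGB5, 24.6 for ITGA11, 19.7 for ITGA5, 13.1 for ITGA7 and 9.85 for ITGB3.

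Ratios within a library do not depend on its scaling factor, and 12 were computed between members, as a description with no test. ITGAV over ITGB1 was 0.368, 0.565, 0.546, 0.373, 0.448 and 0.429 in MSC 1 to MSC 6, against 0.522, 0.771 and 0.710 in control 1 to control 3. It was below every control in 4 of the 6 MSC libraries, while MSC 2 and MSC 3 lay just above control 1. ITGB3 over ITGAV was 0.261, 0.290, 0.229, 0.184, 0.236 and 0.210 in MSC 1 to MSC 6, against 0.201, 0.0944 and 0.145 in control 1 to control 3. Here 5 of the 6 MSC libraries were above every control, MSC 5 among them, and MSC 4 lay between control 1 and control 3.

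The ratios of ITGB5 to ITGAV and to ITGB3 were highest in MSC 5 and MSC 6. ITGB5 over ITGAV was 7.23 in MSC 5 and 2.26 in MSC 6, against 0.448 to 0.695 in the other 4 MSC libraries and 0.425 to 0.619 in the controls. ITGB5 over ITGB3 was 30.6 in MSC 5 and 10.8 in MSC 6, against 1.72 to 2.66 in the other 4 MSC libraries and 2.12 to 6.56 in the controls. ITGAV took 4.56% to 39.5% of the summed RPKM of the 6 alpha members in MSC veins, with a median of 22.2%, and 31.0% to 38.6% in control veins, with a median of 32.0%.

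**Figure D3:**
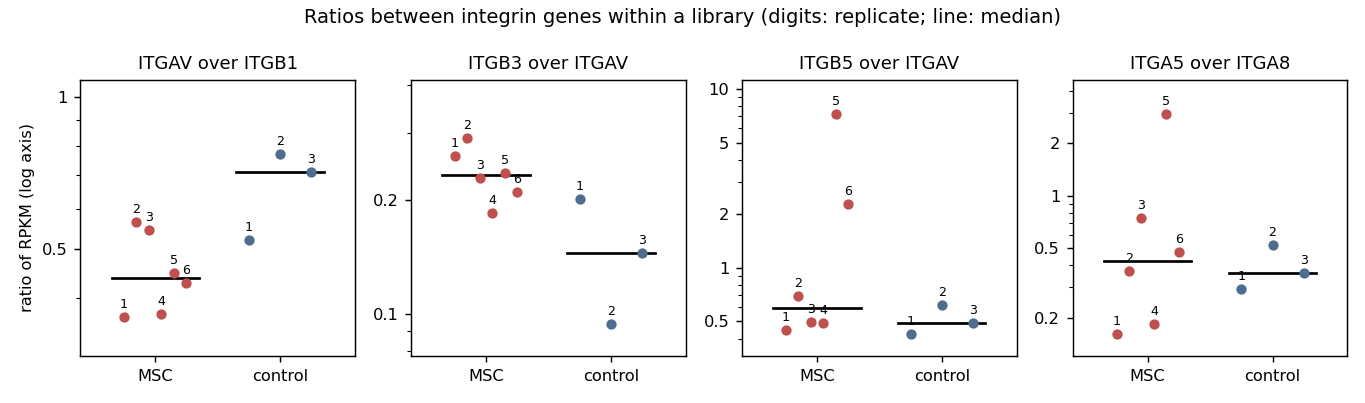
Ratio of RPKM between integrin genes in each library, on log axes, for MSC libraries (red, replicates 1 to 6) and control libraries (blue, replicates 1 to 3), with the group median as a line. ITGB3 over ITGAV is above every control in 5 of 6 MSC libraries, and ITGB5 over ITGAV reaches 7.23 in MSC 5.

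Over the 9 libraries, some members moved together. ITGA5 and ITGB5 had a Pearson r of 0.99 and a Spearman rho of 0.98 on the log2 scale, and r was 0.97 without MSC 5. ITGAV and ITGB1 had an r of 0.80, which was 0.64 without MSC 5, and ITGAV and ITGB5 had an r of -0.53, which was 0.02 without it. These are descriptions over 9 points that share library effects. They are given without a p.

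The genes most like each member by Pearson r were sought among 5582 protein-coding genes that average at least 1 RPKM and overlap no other gene. For ITGA5 they were TFE3 (r 0.993), TSKU (0.991) and MEIS3 (0.990), and for ITGB5 MAP2K2 (0.997), PCED1A (0.992) and FOXK1 (0.992). Such values were common for these members, since 17.2% of the candidates had an r over 0.9 with ITGA5 and 17.5% with ITGB5, as did 13.3% with ITGA7, whose closest were XYLT1 (0.988), RASA3 (0.987) and DAB2IP (0.987), and 5.39% with ITGA11, whose closest were SPARC (0.983), MAML1 (0.975) and ALDH3A2 (0.973).

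Few genes were as close to the other members. For ITGAV, where 0.573% of candidates had an r over 0.9, the closest were SIX4 (0.958), CERS6 (0.951) and FAM98B (0.947). For ITGB1 they were FBXO28 (0.958), SLC12A2 (0.947) and PM20D2 (0.925), and for ITGA8 CDH2 (0.942), GARS1 (0.927) and YWHAH (0.916). No candidate had an r over 0.9 with ITGA1, where EPHA7 (0.884), EGFL6 (0.879) and DCLK2 (0.876) came first, or with ITGB3, where SLC12A2 (0.863), KPNA6 (0.851) and GPR63 (0.845) did.

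The other integrin subunits were measured in the same fit. Of 17 other subunits listed, 15 had a row and 14 passed the filter on low values, and 0 of these 14 passed the test in limma, again beside 0% of all genes. Of their log2 fold changes 5 were positive and 9 negative, with a median of -0.12, against 0.04 for all genes tested. ITGB8, an ITGAV partner that activates latent transforming growth factor beta, had the smallest unadjusted p. It was at 3.88, 2.91, 2.08, 4.52, 1.74 and 1.27 scaled RPKM in MSC 1 to MSC 6, against 7.67, 4.27 and 4.87 in control 1 to control 3. As for ITGAV, 5 of 6 MSC libraries lay below every control. This gave a log2 fold change of -0.86 (SE 0.34, 95% interval -1.61 to -0.11), with an unadjusted p of 0.0290 and an adjusted p of 0.920 in limma.

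The laminin receptor subunit ITGA6 was at 11.5 ± 3.30 scaled RPKM in MSC veins (SD, n = 6) and 17.5 ± 5.53 in control veins (SD, n = 3), a log2 fold change of -0.56 (adjusted p = 0.920, limma). ITGA3, another laminin receptor subunit, was at 16.4 in MSC 5 and 0.193 to 3.15 in the other MSC libraries, against 0.446 to 0.546 in the controls. Its log2 fold change of 1.0 was 0.49 without MSC 5. The log2 fold changes of the collagen receptor subunits ITGA2 and ITGA10 were 0.42 and -0.41, and that of the leukocyte subunit ITGB7 was -0.54. The ITGA2 gene model overlaps MOCS2, whose reads came to 256% of those of ITGA2, so the ITGA2 value may hold reads of MOCS2. ITGA9 had the highest mean of the other subunits, at 16.9 ± 4.28 in MSC veins (SD, n = 6) and 14.9 ± 1.57 in control veins (SD, n = 3), but its gene model overlaps GOLGA4, whose reads came to 83.7% of its own.

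**Figure D4:**
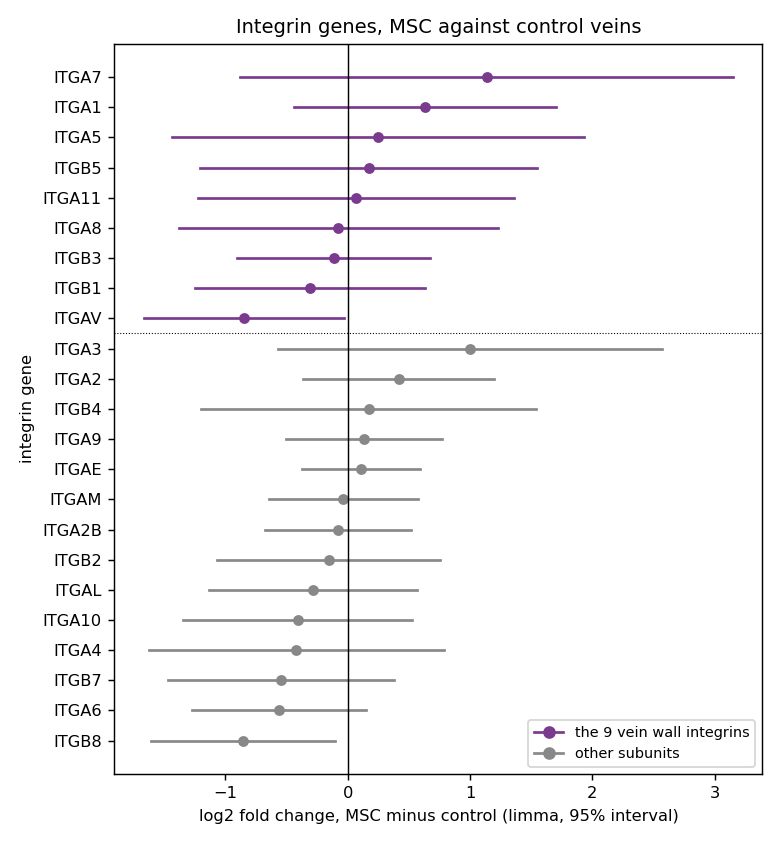
Log2 fold change of each integrin gene, MSC minus control, on log2(scaled RPKM + 1), with 95% intervals from limma, for the 9 vein wall integrins (purple) and the 14 other subunits kept (grey). The intervals of ITGAV and ITGB8 lie below 0 and all others include 0; none passed after adjustment over all genes.

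Among the proteins that integrins bind, 3 genes (FBN1, POSTN and EDIL3) separated the groups with no overlap, which none of the 9 integrins did. Of all genes tested, 1.97% did so in each direction. Of 35 ligand genes listed, 33 were in the table and kept, with 21 positive and 12 negative log2 fold changes and 0 past the threshold in limma. Over all genes tested 55.3% were positive. The ligand median was 0.33, and its sign turned in some other settings, among them without MSC 5 (-0.078) and without control 1 (-0.029). Over the 25 other settings it ran from -0.16 to 0.50. FBN1 encodes fibrillin-1, the Arg-Gly-Asp protein of elastic microfibrils that ITGAV and ITGA5 receptors bind. It was at 647, 653, 499, 668, 321 and 495 scaled RPKM in MSC 1 to MSC 6, against 227, 217 and 213 in control 1 to control 3. Every MSC library was above every control, as was so for 1.97% of all genes tested. The log2 fold change was 1.27 (SE 0.46, 95% interval 0.25 to 2.29), with an adjusted p of 0.920 in limma. FBLN5, another elastic fibre protein, was at 22.9 to 93.9 in MSC veins and 11.3 to 25.2 in control veins, a log2 fold change of 1.67 with an adjusted p of 0.765.

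Periostin (POSTN), a matricellular ligand of ITGAV receptors, lay the other way. POSTN was at 267, 199, 286, 131, 35.7 and 44.3 scaled RPKM in MSC 1 to MSC 6, against 419, 496 and 455 in control 1 to control 3. Every MSC library was below every control, as was so for 1.97% of all genes tested, and MSC 5 and MSC 6 were the lowest. The log2 fold change was -1.90 (SE 0.72), with an adjusted p of 0.920 in limma, and within lanes 5 and 6 it was -1.08, with an adjusted p of 0.323.

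EDIL3, an endothelial Arg-Gly-Asp protein, was at 0.307, 0.780, 1.07, 0.280, 1.44 and 0.0777 scaled RPKM in MSC 1 to MSC 6, against 3.18, 3.30 and 2.57 in control 1 to control 3. It too was below every control in all 6 MSC libraries, beside the same 1.97% of all genes. Its level was low, with only 6 reads in MSC 6 and a counting error there of 40.8%. Its log2 fold change of -1.33 (SE 0.28) had the smallest adjusted p of any ligand in limma, 0.395.

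Both tenascins listed had lower means in MSC veins and did not pass the test. Tenascin C (TNC), a matrix protein of remodelling tissue, was at 15.1 to 335 scaled RPKM in MSC veins and 82.6 to 477 in control veins, with 5 of 6 MSC libraries below every control. Its log2 fold change was -2.44 (SE 0.95), with an adjusted p of 0.920 in limma. Tenascin N (TNN) was at 0.0618 to 8.93 in MSC veins and 8.20 to 13.3 in control veins, a log2 fold change of -2.17 with an adjusted p of 0.838. Within lanes 5 and 6 the TNN log2 fold change was -3.12 with an adjusted p of 0.0412, in a fit that called 0.0112% of all genes in each direction. The main collagens of the wall were far higher in level and did not part the groups, with log2 fold changes of 0.33 for COL1A2 and -0.05 for COL3A1.

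**Figure D5:**
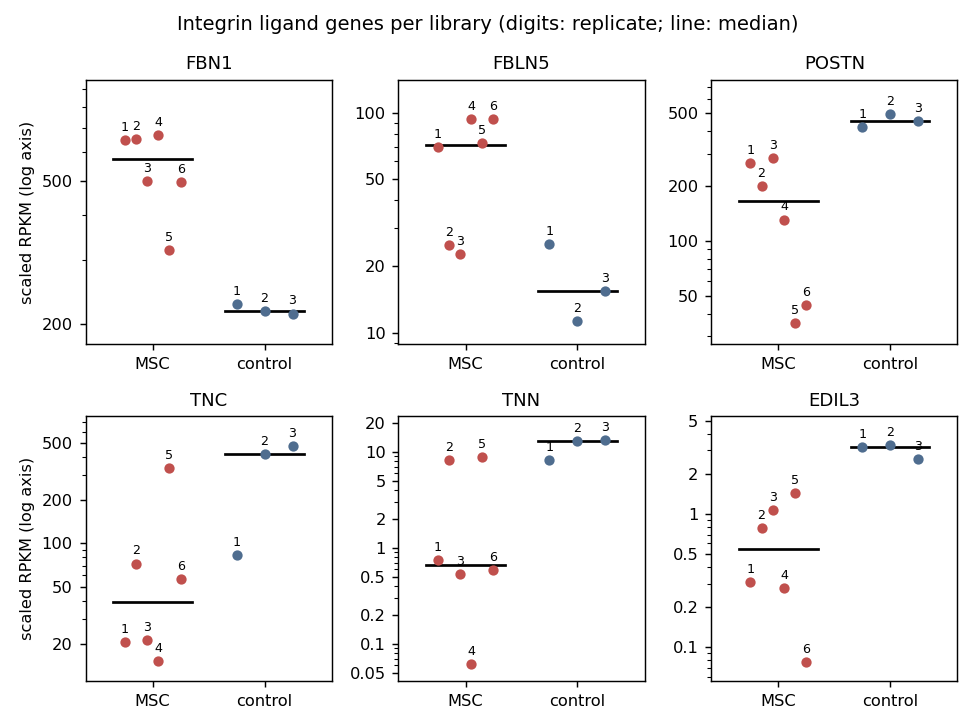
Level of 6 integrin ligand genes in each library, as scaled RPKM on log axes, for MSC libraries (red, replicates 1 to 6) and control libraries (blue, replicates 1 to 3), with the group median as a line. FBN1 is above every control in all 6 MSC libraries, POSTN and EDIL3 are below every control in all 6, and the groups overlap for FBLN5, TNC and TNN.

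On the cytoplasmic side, all 37 adaptor genes listed were kept, and 30 had positive and 7 negative log2 fold changes, with a median of 0.35 and 0 past the threshold in limma, where 55.3% of all genes were positive. That median was 0.23 without MSC 5 and 0.69 without MSC 3. MSC 5 was the highest of the 9 libraries for 26 of the 37, and for 31.7% of all genes tested. LIMS2, a partner of integrin-linked kinase, was at 11.1, 6.55, 4.0, 6.69, 66.7 and 26.9 scaled RPKM in MSC 1 to MSC 6, against 6.49, 2.40 and 2.33 in control 1 to control 3. It was above every control in 5 of 6 MSC libraries, and its log2 fold change was 1.64 (SE 0.75), with an adjusted p of 0.920. Tensin 1 (TNS1) had a log2 fold change of 1.25, vinculin (VCL) of 0.78, paxillin (PXN) of 0.71 and LPP of 0.65. The adjusted p in limma was 0.920 for each of these 4. By their mean over all 9 libraries the most abundant adaptors were alpha-actinin 1 (ACTN1) and filamin A (FLNA), with log2 fold changes of 1.04 and 1.19. For FLNA this rank did not hold in the control veins, where it averaged 33.5 scaled RPKM and talin 1 (TLN1), named after its values were seen, averaged 44.9. FLNA was at 759 in MSC 5 and 337 in MSC 6, against 12.4 to 59.0 in the other 4 MSC libraries and 16.6 to 56.6 in the controls, and its log2 fold change was -0.24 without those 2 libraries.

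Smooth muscle markers also varied between the MSC libraries. The summed level of the 12 markers was 2203, 940.0, 281, 1021, 6650 and 7026 scaled RPKM in MSC 1 to MSC 6, against 697, 597 and 644 in control 1 to control 3. MSC 5 and MSC 6, the libraries high for ITGA5, ITGA7, ITGB5 and FLNA, had the highest sums, and MSC 3, the lowest for ITGA7 and ITGA8, had the lowest. Other members went otherwise: MSC 5 was the lowest library for ITGAV, ITGB1 and ITGB3. MSC 4, the lowest for ITGA5 and ITGB5, had a sum above every control. Of the 12 markers 11 had a positive log2 fold change, with a median of 1.42 and 0 past the threshold in limma. The part of these markers in the integrin values was not tested.

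Other cell types varied as well. The 8 fibroblast markers summed to 864 to 3651 scaled RPKM in MSC veins, MSC 3 being highest, and to 1140 to 1384 in control veins. Of the 3651 in MSC 3, DCN gave 2520 and LUM 837, while 4 of the 8 markers were highest in MSC 5. The 8 endothelial markers summed to 59.2 to 122 in MSC veins and 38.3 to 109 in control veins, and the 8 macrophage markers to 138 to 552, again highest in MSC 3, against 161 to 251. T and NK cell markers summed to 8.10 to 59.1 in MSC veins and 23.5 to 47.5 in control veins, and all 8 had a negative log2 fold change with 0 past the threshold. B and plasma cell markers summed to 18.8 to 229 in MSC veins and 33.4 to 84.4 in control veins, where CD79A, whose gene model overlaps ARHGEF1, made up 228 of the 229 in MSC 6. Of these 8 markers 7 had a negative log2 fold change, with a median of -0.92. MS4A1, BLK and TNFRSF17, named after their values were seen, were below every control in all 6 MSC libraries, beside 1.97% of all genes tested. Their levels were low, with as few as 2, 7 and 0 reads in a library. No B or plasma cell marker passed the threshold in limma. The skeletal muscle markers summed to 184 in MSC 6 and 0.269 to 4.67 in the other MSC libraries, against 0.444 to 0.852 in the controls, and ACTA1 alone gave 181 of the 184. Nerve and glia markers summed to 12.0 to 51.1 in MSC veins and 13.3 to 41.1 in control veins, and proliferation markers to 18.2 to 44.7 in MSC veins and 18.9 to 30.2 in control veins. Their part in the integrin values was not tested.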

How the data were processed

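Per the labels' protocols, 0.5 µg of total RNA went into each TruSeq V2 library. The values are RPKM for 30477 pig genes, 1 column per library, as deposited by the authors, and the unit is named per the file headers. Which aligner and counter were used, and whether strand was, is not given in the sources used here. Builds named in the submitters' processing notes are susScr11 and mm10 with no role, so coordinates are those of the table and genes that overlap may share reads. No sequences are shown.

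Within a library, deposited RPKM times (gene length + 1) came in whole steps (100% of values within 0.01, largest deviation 3.38e-07), which gave read numbers for the filter and scaling. The filter asked for a scaled count of 10 in 3 libraries or more and a total of 15 reads, leaving 17884 genes, 14584 of them protein coding. RPKM were divided by trimmed-mean factors (trims 0.3 and 0.05) and log2(scaled RPKM + 1) was fitted with limma 3.58.1 in R 4.3.3 over 6 MSC and 3 control libraries, with a variance prior that follows expression, no covariate, two-sided p and Benjamini-Hochberg adjustment over all genes kept (threshold 0.05). On this scale the fold changes of low genes are understated. The plan's test for raw counts was not needed, since the table held RPKM. Means and SDs are of scaled RPKM. The steps were tested on simulated data with large fold changes and the same spread in both groups. That test does not cover smaller changes or the wider spread of the MSC libraries. Counting errors cover the sampling of reads only, and 95% intervals are those of limma over libraries.

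The members and the lists of subunits, ligands, adaptors and cell type markers were chosen with earlier results of these data known. Named genes are the 9 members, the 6 genes of each other integrin list with the smallest p and its 2 most abundant, and the 3 genes most like each member by Pearson r. ITGAD, ITGAX, COL6A2 and LAMA2 have no row of that name. Of the genes this rule names, 1 adaptor is counted in its list and not reported here by name. Samples were grouped by their titles. Alternatives were other scalings, filters and pseudocounts (0.1 and 0.5), limma-voom from the recovered reads, plain or with quality weights, a prior that is robust, a lane or replicate term, subsets of libraries and each library left out.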

Additional observations from a re-analysis of the deposited data

Results flagged for a closer look

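Of 43 values tested for an outlying library among the 6 MSC libraries, 3 had a library whose gap to its nearest neighbour exceeded Dixon's 95% critical value. Chance gives about 1 in 20, or 2.15 of 43.

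The log2 ratio of ITGA1 over ITGA11 was -2.70 in MSC 5, where the other 5 MSC libraries lay between 0.36 and 1.20. In linear terms ITGA1 over ITGA11 was 0.154 in MSC 5 and 1.29 to 2.30 in the others, against 0.421 to 1.90 in the controls. The log2 ratio of ITGA7 over ITGA8 was 1.52 in MSC 5, with the next highest MSC library at -1.57 and the lowest at -3.10.

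COL1A2 stood at 13.83 on the log2(scaled RPKM + 1) scale in MSC 5, with the next MSC library at 12.71 and the lowest at 12.16.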

How the results depend on the processing

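Over 25 other settings, of which scaling factors from all genes were added after seeing the data, ITGA1 stayed positive and ITGAV negative. No setting but limma-voom with quality weights called a member, and it called 1, ITGA1 (log2 fold change 1.32, adjusted p 0.0143), with 1050 genes higher, 1116 lower, 3 other subunits, 11 ligands and 5 adaptors. Plain limma-voom called 0 genes, with 817 at an unadjusted p under 0.05, where limma-trend had 729. Lanes 5 and 6 alone gave 2 genes higher, 2 lower and 1 ligand, TNN. Leaving out 1 library gave 0 to 1 genes higher and 0 to 21 lower, the 21 without control 1. The cause was not tested.

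Log2 fold changes turned sign as follows. As deposited, ITGA11 was -0.11, ITGB5 -0.0074 and ITGA9 -0.021, and with factors from all genes ITGA11 was -0.069. Quality weights gave ITGA5 -0.67, ITGA8 0.10, ITGA11 -0.47, ITGB1 0.26, ITGB3 0.14 and ITGB5 -0.47. Lane in the model gave ITGA5 -0.60, ITGA11 -0.33, ITGB1 0.30, ITGB3 0.27 and ITGB5 -0.50. Lanes 5 and 6 gave ITGA5 -0.70, ITGA7 -0.052, ITGA11 -0.37, ITGB1 0.13, ITGB3 0.14, ITGB5 -0.58 and FLNA -0.14. Without MSC 5 and MSC 6, ITGA5 was -0.63, ITGA11 -0.42, ITGB3 0.18, ITGB5 -0.50 and FLNA -0.24. Without control 2 and MSC 1, COL3A1 was 0.24.

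With each library left out in turn, ITGA5 ran from -0.22 to 0.52, ITGA8 from -0.31 to 0.27, ITGA11 from -0.31 to 0.29, ITGB3 from -0.28 to 0.036, ITGB5 from -0.21 to 0.46 and COL3A1 from -0.32 to 0.24.

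Whether replicate numbers shared by MSC and control libraries pair them is not given in the labels. Deviations of libraries with the same number correlated at 0.22, -0.52 and -0.14, and those of other pairs at -0.17 to 0.45. Such values over so few pairs cannot decide it. The replicate block on those numbers gave ITGA5 -0.47, ITGA11 -0.45, ITGB3 0.33, ITGB5 -0.42 and FLNA -0.26, and changed no call.

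The median fold change ran from -0.29 to -0.035 for other subunits, from 0.037 to 0.69 for adaptors and from -0.16 to 0.50 for ligands. Of 550 values of 22 other named genes, 8 turned sign and 11 passed the threshold. Scalings moved the median of all genes by under 0.1. Among listed subunits, ligands and adaptors, unadjusted main-fit intervals lay on 1 side of 0 for ITGAV, ITGB8, FBN1, FBLN5, POSTN, TNC, TNN and EDIL3. The ligands among them passed after adjustment over all genes with quality weights only, except that TNN also passed within lanes 5 and 6. ITGAV and ITGB8 passed in no setting, and within lanes 5 and 6 their unadjusted p in limma was 0.0829 and 0.0920.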

Other observations

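Chains of basement membrane collagen and laminin, named here after their values were seen, differed in which library was highest. COL4A2 was at 909 scaled RPKM in MSC 5, against 11.8 to 162 in the other 5 MSC libraries and 23.7 to 42.8 in the controls. LAMA5 was at 32.1 in MSC 5, against 0.438 to 9.23 in the other 5 MSC libraries and 0.506 to 1.10 in the controls. LAMC1, the common gamma chain, was at 102 in MSC 5 and 41.8 to 106 in the other 5 MSC libraries, against 57.8 to 69.4 in the controls. LAMA4, the laminin alpha chain of vessel walls, was lowest in MSC 5, at 54.3 in MSC 5 and 55.1 to 119 in the other 5 MSC libraries, against 69.5 to 94.3 in the controls. Of the 33 ligand genes kept, 18 had their highest value in MSC 5, where 31.7% of all genes tested did.

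The leukocyte integrins ITGAL and ITGB2 were highest in different libraries. ITGAL, the alpha subunit of a lymphocyte receptor, was highest in MSC 3 at 9.82 scaled RPKM, with 2.52 to 9.11 in the other MSC libraries, against 5.05 to 8.35 in the controls. ITGB2, its beta partner, was highest in MSC 5 at 7.05, with 1.37 to 3.86 in the other MSC libraries, against 2.58 to 5.25 in the controls. The ITGAM row spans the RefSeq genes ITGAD and ITGAX, so its level may hold reads of all 3. ITGB6, an epithelial subunit, was below the filter, at 0.491 in MSC 2 and at most 0.0212 in the other MSC libraries, against at most 0.0229 in the controls.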
